A study of Mus musculus with 21 samples.

Results

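The transcripts that encode the subunits of the mitochondrial respiratory chain were followed through a CRISPR activation study of the sodium channel gene Scn2a. Members were taken by symbol, as the mitochondrially encoded protein genes (mt-Nd, mt-Co, mt-Cytb and mt-Atp) and the nuclear genes whose symbols begin with a numbered Nduf subunit, Uqcr, Sdha to Sdhd, or Cox5 to Cox8, and pseudogene symbols were dropped. The rule found 85 genes, 83 of the 31551 genes listed for cultured cells and 84 of the 39006 listed for mouse nuclei. Of these, 13 are mitochondrially encoded (7 subunits of complex I, 1 of complex III, 3 of complex IV and 2 of ATP synthase) and 72 are nuclear (44 under complex I names, 4 of complex II, 8 of complex III and 16 of complex IV). The rule leaves out Cox4i1, Cox4i2, cytochrome c1 and the nuclear ATP synthase subunits, which are treated as neighbouring genes of the pathway.

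PolyA RNA was sequenced from 21 mouse samples, 12 Neuro2a cultures and 9 preparations of sorted cortical nuclei. Neuro2a is a mouse neuroblastoma line. Its 6 CRISPRa cultures received 750 ng of a guide RNA plasmid and 750 ng of a plasmid for sadCas9-VP64, a nuclease-dead Cas9 fused to a transcriptional activator, and its 6 VP64 only cultures received the activator plasmid without a guide. Library names place replicates 4 to 6 of both groups in library set 8 and replicates 1 to 3 in library set 7. The nuclei came from the cortex of mice on a C57BL/6J background in 3 groups of 3. Het CRISPRa mice were Scn2a+/- and had 500 nL of rAAV carrying guide RNA and sadCas9-VP64 delivered to the medial prefrontal cortex 4 weeks earlier, Het mice were Scn2a+/-, and WT mice were wild type. The labels do not say whether Het or WT mice were injected and give no ages. Nuclei were sorted on the neuronal protein NeuN from 200 mg of cortex, which can hold tissue away from the injection.

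The respiratory chain passes electrons from NADH, through complex I, or from succinate, through complex II, to ubiquinone, then through the bc1 complex (complex III) and cytochrome c to cytochrome c oxidase (complex IV), and the proton gradient this builds drives ATP synthase. Mitochondrial DNA encodes the hydrophobic core subunits of every complex except complex II. Its genes are copied as long transcripts of both strands that are cut into shorter RNAs inside the organelle. Many of these RNAs, but not all, are given short polyA tails there, and not every gene has an RNA of its own. All other subunits come from nuclear genes, are made in the cytosol and imported, so a working complex needs products of both genomes. Neurons use this pathway to power ion pumping, and nuclei themselves contain no mitochondria.

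Depth was 15.5 to 20.97 M reads per Neuro2a library and 15.5 to 20.1 M per library of nuclei (M, 1e+06), estimated from the value of 1 read. All levels below are CPM, counts per 1e+06 reads, as the authors deposited them, and all log2 differences are on log2(CPM + 0.5), which understates changes of low genes. Differences were tested with limma across all genes that passed a filter on low values, 14398 in Neuro2a and 18967 in nuclei, and a gene is said to rise or fall where its Benjamini-Hochberg adjusted p was below 0.05. Nothing in the labels says that replicates are separate cultures or animals beyond their being separate samples, so p-values measure the spread between samples. Scn2a, the target, rose in Neuro2a CRISPRa cultures by 0.50 (SE 0.10, adjusted p = 0.00531). In nuclei the Het CRISPRa minus Het difference of Scn2a was 0.25 (adjusted p = 0.81) and the Het minus WT difference was -0.13 (adjusted p = 0.875). The sadCas9-VP64 transcript was read at 7.12, 4.09 and 4.404 CPM in Het CRISPRa nuclei and at 0 in all Het and WT nuclei, so the labels of the injected group match its vector. Neuronal markers summed to 4653 ± 94 CPM in Het CRISPRa, 4410 ± 80 in Het and 4676 ± 124 in WT nuclei (SD, n = 3 each). Astrocyte markers summed to group means of 254 to 260 CPM and oligodendrocyte markers to 99.5 to 109 CPM. Microglial markers had group means of 11.4 to 13.1 CPM and vascular markers of 1.47 to 1.93 CPM.

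Some of the mitochondrial genes overlap, which bears on what their counts can separate. On the GRCm38 mitochondrial genome the end of mt-Atp8 and the start of mt-Atp6 share 43 bases, 21.1% of the 204 bases of mt-Atp8, shown here because reads that end in them belong to both genes (all 43 are shared, so none is capitalised).
mt-Atp8 and mt-Atp6 shared bases, GRCm38, chrM:7927-7969, plus strand: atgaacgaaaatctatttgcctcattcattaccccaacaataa
The genes mt-Nd4l and mt-Nd4 share 7 bases, and mt-Nd5 and mt-Nd6 share 14 bases on opposite strands. How the counting treated strand and reads in shared bases is not stated in the sources used here, so the values of these pairs are uncertain with respect to each other.

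The nuclear genes have no common promoter, and RefSeq promoter sequences (GRCm38.p6, 250 bases before the annotated start) were found for 56 of the 72. The promoters of 3 members that fell in the pooled Neuro2a CRISPRa cultures are shown first. Those of 2 members that carry the core of the binding motif of NRF1, a transcription factor known for nuclear respiratory genes, follow. These 2, Sdhb and Cox6a1, are among the 32 of 66 tested nuclear members that were lower in set 8 than in set 7 VP64 only cultures. Capitals mark GCATGCGC on either strand.
Cox8a promoter, GRCm38.p6, chr19:7217617-7217866, minus strand: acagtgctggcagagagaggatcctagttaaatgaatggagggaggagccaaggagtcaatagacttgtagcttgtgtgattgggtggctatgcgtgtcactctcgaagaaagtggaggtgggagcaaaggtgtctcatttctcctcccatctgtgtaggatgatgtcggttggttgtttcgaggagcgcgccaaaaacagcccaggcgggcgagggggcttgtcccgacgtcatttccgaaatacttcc
Cox7a2 promoter, GRCm38.p6, chr9:79759854-79760103, minus strand: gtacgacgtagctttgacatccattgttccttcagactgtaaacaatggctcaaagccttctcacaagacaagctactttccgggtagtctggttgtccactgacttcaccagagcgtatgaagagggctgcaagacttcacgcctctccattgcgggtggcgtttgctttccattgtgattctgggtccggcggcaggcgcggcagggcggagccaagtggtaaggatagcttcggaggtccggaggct
Ndufv3 promoter, GRCm38.p6, chr17:31519865-31520114, plus strand: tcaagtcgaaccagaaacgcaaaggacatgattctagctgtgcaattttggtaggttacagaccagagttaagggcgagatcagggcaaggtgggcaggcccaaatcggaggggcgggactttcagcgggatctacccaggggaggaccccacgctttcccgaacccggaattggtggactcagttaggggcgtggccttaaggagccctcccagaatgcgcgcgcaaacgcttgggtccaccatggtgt
Sdhb promoter, GRCm38.p6, chr4:140961021-140961270, plus strand: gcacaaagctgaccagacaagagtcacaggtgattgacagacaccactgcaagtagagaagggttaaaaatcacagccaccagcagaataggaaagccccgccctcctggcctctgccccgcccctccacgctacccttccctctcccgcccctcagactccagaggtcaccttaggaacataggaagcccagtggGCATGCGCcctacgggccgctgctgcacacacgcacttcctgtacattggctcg
Cox6a1 promoter, GRCm38.p6, chr5:115348959-115349208, minus strand: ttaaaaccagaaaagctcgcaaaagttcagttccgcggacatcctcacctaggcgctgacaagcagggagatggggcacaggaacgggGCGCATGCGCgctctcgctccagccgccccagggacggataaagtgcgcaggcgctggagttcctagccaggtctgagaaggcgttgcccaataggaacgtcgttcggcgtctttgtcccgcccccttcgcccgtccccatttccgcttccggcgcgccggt
The motif starts 54 bases before the start of Sdhb, and in Cox6a1 it was matched at 162 and 160 bases before the start, on opposite strands and overlapping. It was found in 5 of 58 promoters of nuclear members (8.62%; Cox6a1, Ndufa11, Ndufa6, Ndufa8 and Sdhb), against 2.26% of all 32851 promoters of the table. The ETS core CCGGAAGT was found in 3.45% of the members' promoters (Uqcr11 and Uqcrh), against 2.88% of all promoters. The hypoxia element core ACGTG was found in 17.2%, against 16.6% of all, and the YY1 core AAGATGGCG in 0 of 58, against 0.606% of all. None of the 4 cores occurred in the 6 promoters available for members that fell in the pooled Neuro2a comparison. Ndufa4l2, which also fell, had no promoter sequence listed and was not searched. At shares this low, 6 promoters are too few to show a lack of the cores. Of the members with a core, Ndufa6 and Cox6a1 (NRF1 core), Uqcrh (ETS core) and Sdha (hypoxia core) fell within a library set, and Sdhb (NRF1 core) rose in set 7. Of all 66 tested nuclear members, 19 fell in set 8, and 13 fell and 6 rose in set 7. A match is a run of letters in these windows and shows no binding.

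Neuro2a CRISPRa cultures had more mitochondrially encoded respiratory chain RNA than VP64 only cultures, while nuclear encoded subunit RNA did not rise. The 13 mitochondrial genes summed to 12886 ± 1417 CPM in CRISPRa and 9031 ± 903 in VP64 only cultures (SD, n = 6 each). By library the sums were 13602, 11818 and 10546 CPM in set 8 CRISPRa cultures and 14178, 13942 and 13234 CPM in those of set 7, against 9988, 8838 and 9652 CPM in set 8 VP64 only cultures and 9744, 8101 and 7864 CPM in those of set 7. Every CRISPRa library lay above every VP64 only library. The 70 listed nuclear genes summed to 4227 ± 346 CPM in CRISPRa and 4403 ± 201 in VP64 only cultures, and with the sets pooled the groups overlapped. Within set 8 the nuclear sums were apart, at 3885 to 3979 CPM in CRISPRa and 4184 to 4268 CPM in VP64 only cultures. Within set 7 they overlapped, at 4410 to 4607 CPM in CRISPRa and 4470 to 4661 CPM in VP64 only cultures. The ratio of the mitochondrial to the nuclear sum was 3.05 ± 0.28 in CRISPRa and 2.06 ± 0.27 in VP64 only cultures, with a lowest CRISPRa library of 2.71 and a highest VP64 only library of 2.36. Mitochondrial protein genes made up 1.05 to 1.42% of the CRISPRa libraries and 0.786 to 0.999% of the VP64 only libraries. In bulk samples, a different number of cells of a kind and a different amount of RNA per cell cannot be told apart.

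**Figure D1:**
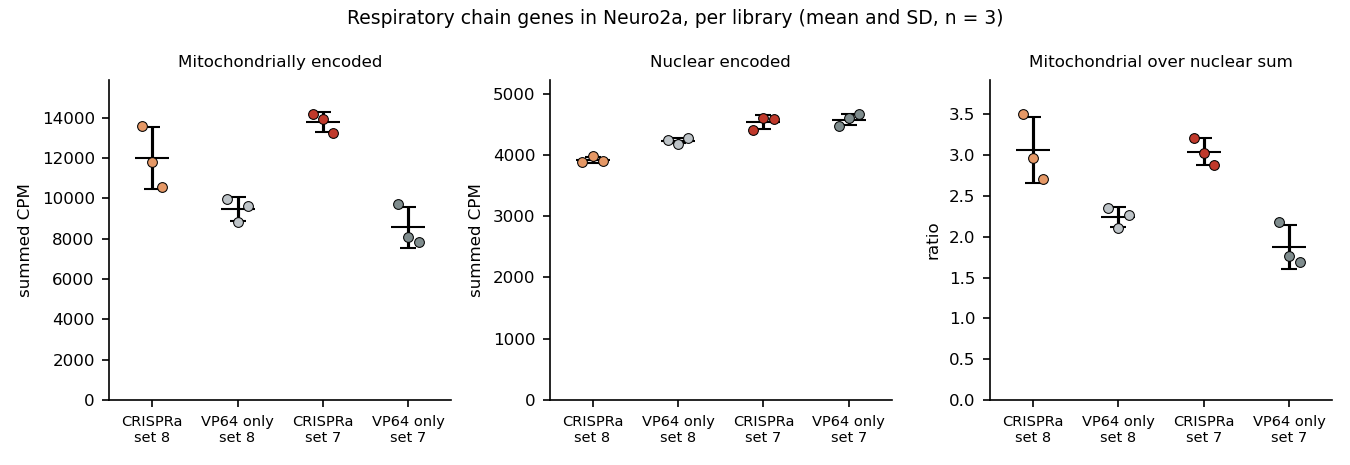
Summed CPM of the 13 mitochondrial (left) and the 70 nuclear respiratory chain genes (middle) and the ratio of the sums (right) in each Neuro2a library, by library set, with CRISPRa left of VP64 only, 1 point per library and lines and bars at the mean and SD (n = 3). CRISPRa libraries hold 10546 to 14178 CPM of mitochondrial RNA, all above the VP64 only libraries, whereas the nuclear sums also separate by library set.

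Of the 13 mitochondrial genes, 10 rose and 0 fell in CRISPRa cultures, where 10% of all tested genes rose. Their median log2 difference was 0.53, against 0.06 over all genes. Rescaling the libraries by median-of-ratios changes the split of calls over all genes to 1063 higher and 1104 lower, against 1443 higher and 723 lower as deposited, and left the 10 mitochondrial calls at the same count. Among complex I genes, mt-Nd4, which encodes a proton-pumping subunit, ranged over 586, 907 and 1043 CPM in CRISPRa cultures (lowest, median, highest), against 430, 477 and 522 CPM in VP64 only cultures. The groups of mt-Nd4 did not overlap, and its ratio of means was 1.77 (log2 difference 0.80, SE 0.12, adjusted p = 0.00131; exact 2-sided permutation p = 0.002165, the smallest that 6 against 6 can give). The related subunit genes mt-Nd2 (0.49, adjusted p = 0.00208), mt-Nd5 (0.53, adjusted p = 0.0101), mt-Nd4l (0.78, adjusted p = 0.018) and mt-Nd1 (0.52, adjusted p = 0.0232) rose too, as did mt-Nd6 (0.56, adjusted p = 0.0132), the only one of the 13 copied from the other strand. The call of mt-Nd1 was lost without CRISPRa replicate 1, 2 or 3 or without VP64 only replicate 5, with adjusted p up to 0.0567. The small gene mt-Nd3 differed by 0.44 (SE 0.24, adjusted p = 0.229) and did not pass.

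In complex III, mt-Cytb, the cytochrome b gene, ranged over 923, 1319 and 1454 CPM in CRISPRa cultures (lowest, median, highest), against 619, 768 and 814 CPM in VP64 only cultures, and rose by 0.73 (SE 0.11, adjusted p = 0.00121) with no overlap. The 3 catalytic core subunits of complex IV did not move alike. The gene mt-Co1, whose product binds the haem groups of the oxidase, ranged over 3547, 4285 and 5155 CPM in CRISPRa cultures (lowest, median, highest), against 2380, 2848 and 3226 CPM in VP64 only cultures. That difference was 0.62 (SE 0.11, adjusted p = 0.00225; exact permutation p = 0.002165), and mt-Co2, whose product takes electrons from cytochrome c, rose by 0.62 (SE 0.13, adjusted p = 0.00783). The third gene, mt-Co3, ranged over 1105, 1339 and 1538 CPM in CRISPRa cultures, against 1119, 1229 and 1545 CPM in VP64 only cultures. These ranges of mt-Co3 nearly coincide, and its difference of 0.05 (SE 0.10, adjusted p = 0.802) was -0.01 under median-of-ratios scaling.

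The 2 ATP synthase genes lie next to each other and overlap. The gene mt-Atp8 rose by 0.45 (SE 0.10, adjusted p = 0.00885), with 38.2 to 48.9 CPM in CRISPRa and 25.3 to 36.6 in VP64 only cultures. Its neighbour mt-Atp6, which encodes the subunit of the proton channel, ranged over 1325, 1356 and 1431 CPM in CRISPRa cultures (lowest, median, highest), against 886, 1156 and 1535 CPM in VP64 only cultures. The CRISPRa values of mt-Atp6 fall inside the VP64 only range, and the difference of 0.25 (SE 0.11, adjusted p = 0.13; exact permutation p = 0.0584) did not pass, although it passed with library set as a covariate (adjusted p = 0.0207), under quantile scaling (adjusted p = 0.0157) and without VP64 only replicate 4 (adjusted p = 0.0249). In 6 of the 13 genes (mt-Nd2, mt-Nd4, mt-Cytb, mt-Co1, mt-Co2 and mt-Atp8) every CRISPRa library was above every VP64 only library, which held for 5.74% of all tested genes. The authors' deposited table for this comparison also lists 10 of the 13 as higher and 0 as lower at an adjusted p below 0.05.

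Per kilobase of exon, the order of the mitochondrial levels in CRISPRa cultures ran from mt-Co1 (2810 CPM per kb, against 1814 in VP64 only) through mt-Atp6 (2010, against 1712), mt-Co3 (1706, against 1656) and mt-Co2 (1700, against 1113) to mt-Nd6 (136, against 90.2), mt-Nd3 (113, against 82.7) and mt-Nd4l (101, against 56.1). The neighbours mt-Co3 and mt-Co2 do not differ beyond their spread in CRISPRa cultures, nor do mt-Nd3 and mt-Nd4l. The median nuclear member stood at 32.7 CPM per kb in CRISPRa and 33.8 in VP64 only cultures, below every mitochondrial gene.

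The mitochondrial rise was present in both library sets and larger in set 7. In set 8, 8 of 13 genes rose and 0 fell (14.4% of all genes rose), with a median log2 difference of 0.34 against 0.02 over all genes. In set 7, 11 of 13 rose and 0 fell (29.7% of all genes rose), with a median of 0.72 against 0.09. The test of the difference between sets, set 8 minus set 7, was negative and passed for 8 of 13 genes, where 12.3% of all genes passed in that direction. Its median was -0.40 over the 13 genes and -0.05 over all genes. Median-of-ratios scaling moved the balance of calls over all genes here too, to 1643 higher and 1973 lower in set 8 (2073 and 1502 as deposited), 3085 and 3401 in set 7 (4276 and 2443 as deposited), and 1793 and 1281 for the contrast (1357 and 1775 as deposited). The 8 mitochondrial contrasts were 3 without the filter on low values and 4 with robust variance moderation.

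The set difference was largest for mt-Co2. In set 8 this gene had 1075, 1030 and 959 CPM in CRISPRa cultures, against 879, 815 and 922 CPM in VP64 only cultures. In set 7 mt-Co2 had 1312, 1253 and 1348 CPM in CRISPRa cultures, against 789, 537 and 624 CPM in VP64 only cultures. Groups were apart in both sets, but the log2 difference was 0.23 in set 8 (adjusted p = 0.0603) and 1.02 in set 7, a contrast of -0.79 (adjusted p = 0.000116). The set 8 difference of mt-Co2 passed with the sets fitted alone (adjusted p = 0.0037), under quantile scaling (0.0177) and without VP64 only replicate 1 (0.00548) or 2 (0.018). For mt-Nd5 the contrast was -0.55 (0.25 in set 8 and 0.80 in set 7, adjusted p = 0.000276), for mt-Nd1 -0.40 (0.32 and 0.72, adjusted p = 0.00279) and for mt-Nd2 -0.31 (0.34 and 0.65, adjusted p = 0.0121). The contrasts of mt-Nd4 (-0.49, adjusted p = 0.0248) and mt-Nd6 (-0.40, adjusted p = 0.0283) each lost their call in 6 of the 12 fits without a single library, with adjusted p up to 0.0672 for mt-Nd4 and 0.0837 for mt-Nd6, while mt-Cytb stood at -0.50 (adjusted p = 0.0138).

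At mt-Atp6 the groups separated in set 7 and overlapped in set 8. In set 8 its CRISPRa libraries had 1325, 1431 and 1330 CPM, against 1535, 1263 and 1198 CPM in VP64 only, an overlap with a log2 difference of 0.04 that did not pass. In set 7 its CRISPRa libraries had 1416, 1372 and 1340 CPM, against 1114, 886 and 1002 CPM in VP64 only, a separation with a difference of 0.46, and the set contrast was -0.43 (adjusted p = 0.00716). Its CRISPRa level averaged 1362 ± 60.1 CPM in set 8 and 1376 ± 38.3 CPM in set 7, and its VP64 only level 1332 ± 178.8 CPM in set 8 and 1001 ± 113.6 CPM in set 7 (SD, n = 3 each). The genes mt-Co3 (0.00 in set 8 and 0.09 in set 7) and mt-Nd3 (0.27 and 0.61) passed in neither set, although mt-Nd3 in set 7 passed without CRISPRa replicate 1 (0.92, adjusted p = 0.00833) or VP64 only replicate 2 (0.92, adjusted p = 0.00895).

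In the order of the genes along the mitochondrial genome, the 4 smallest pooled differences lay side by side, at mt-Atp8 (0.45), mt-Atp6 (0.25), mt-Co3 (0.05) and mt-Nd3 (0.44), a stretch picked out after its values were seen. The genes before and after it, mt-Co2 (0.62) and mt-Nd4l (0.78), rose.

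**Figure D2:**
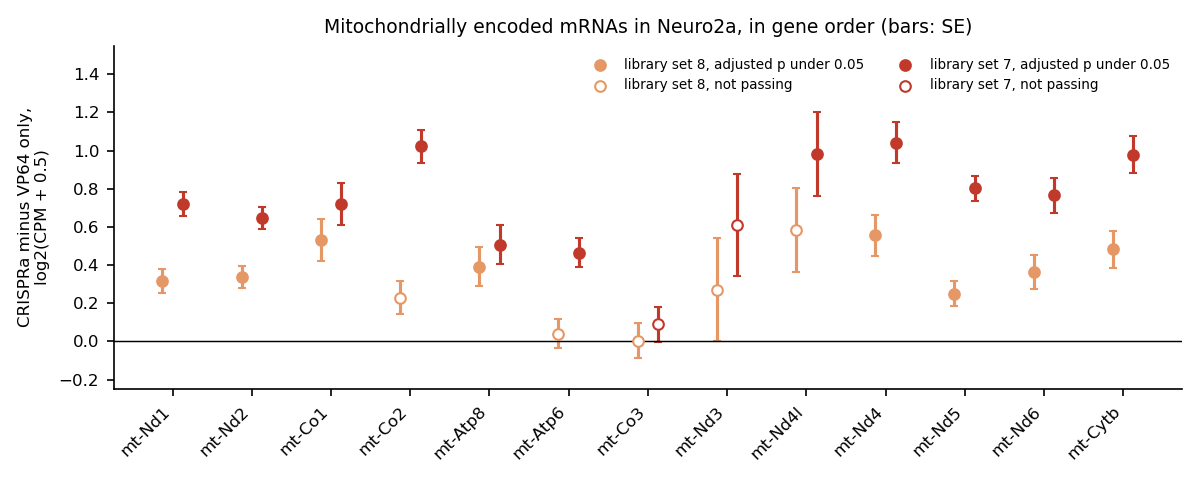
Log2 difference, CRISPRa minus VP64 only on log2(CPM + 0.5), of each mitochondrial gene in set 8 (left point of each pair) and set 7 (right point), in the order of the genes along the mitochondrial genome, with bars at 1 SE and filled points where the adjusted p was below 0.05. Set 7 points lie above set 8 points for all 13 genes, and mt-Atp6 and mt-Co3 lie lowest.

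The library sets also differed within the VP64 only cultures, which carry no guide. Set 8 minus set 7 was positive and passed for mt-Atp6 (0.41, adjusted p = 0.000151), mt-Co2 (0.44, adjusted p = 0.000304) and mt-Co3 (0.25, adjusted p = 0.0334), 3 of 13 where 19.9% of all genes were higher, and negative for mt-Nd1 (-0.21, adjusted p = 0.00938), 1 of 13 where 25.9% of all genes were lower. The calls of mt-Co3 and mt-Nd1 were each lost without some single VP64 only libraries (mt-Co3 without replicate 2, 3, 4 or 6, adjusted p up to 0.161; mt-Nd1 without replicate 1 or 5, adjusted p up to 0.0795). The transgene moved with the sets: sadCas9-VP64 RNA stood in set 8 at 599.8 ± 34.3 CPM for CRISPRa against 349 ± 27.5 CPM for VP64 only cultures, and in set 7 at 1977 ± 256 CPM for CRISPRa against 2550 ± 83.7 CPM for VP64 only cultures (SD, n = 3 each). For the mCherry-puro transcript, listed as the second transgene, the CRISPRa means were 1727 CPM (set 8) and 5296 CPM (set 7), and every VP64 only culture was at 0. The part of transgene load in the mitochondrial values was not tested.

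Nuclear encoded subunits moved little in the pooled comparison, and those that passed were lower in CRISPRa cultures. Of the 66 that passed the filter, 0 rose and 7 fell, where 5.02% of all tested genes fell, with 13 at an unadjusted p below 0.05. Their median log2 difference was -0.03 against 0.06 over all genes, with 42 below 0, and it was 0.00 without CRISPRa replicate 4. With replicate number as a block, 14 nuclear members fell and 0 rose. The authors' deposited table lists 15 of 68 as lower and 0 as higher. The count of 7 was 4 without CRISPRa replicate 1, VP64 only replicate 3 or VP64 only replicate 6.

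Complex IV held 3 of the 7. Cox8a, the widely expressed form of the smallest oxidase subunit, ranged over 132.8, 135.8 and 141 CPM in CRISPRa cultures (lowest, median, highest), against 158.1, 159.5 and 170.2 CPM in VP64 only cultures, without overlap. It fell by 0.24 (log2 difference -0.24, SE 0.04, adjusted p = 0.00163; exact permutation p = 0.002165), the smallest adjusted p among nuclear members. Cox7a2, the widely expressed form of subunit VIIa, ranged over 53.0, 56.4 and 60.6 CPM in CRISPRa cultures, against 65.3, 66.7 and 72.7 CPM in VP64 only cultures, again without overlap (log2 difference -0.27, SE 0.05, adjusted p = 0.00351). Its heart and muscle counterpart Cox7a1 is a low transcript here, at 1.11 to 4.72 CPM in CRISPRa and 3.24 to 5.93 in VP64 only cultures. The ranges of Cox7a1 overlap, and its pooled fall of 0.83 (log2 difference -0.83, SE 0.23, adjusted p = 0.0288) was lost without any of CRISPRa replicates 1, 2 and 3 or VP64 only replicates 2, 3, 5 and 6, with adjusted p up to 0.0624. Within set 7 Cox7a1 fell too, and that call held in all 21 alternative fits (log2 difference -1.46 to -1.05, limma adjusted p up to 0.0068).

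Among complex I names, Ndufv3, a small subunit of the NADH-oxidising module, had 38.97, 35.4 and 36.5 CPM in set 8 CRISPRa cultures and 46.2, 46.0 and 41.1 CPM in those of set 7, against 48.2, 55.8 and 55.7 CPM in set 8 VP64 only cultures and 50.2, 52.9 and 55.0 CPM in those of set 7. No library of Ndufv3 crossed between groups, and it differed by -0.38 (SE 0.08, adjusted p = 0.0053). Ndufa4l2, a paralog of Ndufa4 known as a hypoxia-induced gene, had 17.7, 5.99 and 10.5 CPM in set 8 CRISPRa cultures and 10.6, 12.1 and 4.67 CPM in those of set 7, against 32.2, 33.1 and 36.0 CPM in set 8 VP64 only cultures and 17.5, 12.5 and 20.03 CPM in those of set 7. The VP64 only level itself was higher in set 8 than in set 7 (1.02, adjusted p = 0.00656), and the pooled difference was -1.28 (SE 0.32, adjusted p = 0.0167; ratio of means 0.406; exact permutation p = 0.00649). Paralogs share sequence, and how reads with several alignments were counted is not stated in the sources used here, so values within the Ndufa4, Cox6a, Cox7a and Cox7b families are uncertain to that degree.

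Complexes II and III gave 1 member each. Of the 4 succinate dehydrogenase genes, Sdha (log2 difference -0.11), Sdhb (0.08) and Sdhc (-0.02) did not pass. Sdhd, a membrane anchor of succinate dehydrogenase, had 84.2 to 93.4 CPM in CRISPRa and 92.9 to 103.2 in VP64 only cultures (log2 difference -0.15, SE 0.05, adjusted p = 0.04). Uqcrfs1, the Rieske iron-sulfur protein, had 75.1 to 81.0 CPM in CRISPRa and 82.5 to 93.4 in VP64 only cultures (log2 difference -0.16, SE 0.05, adjusted p = 0.0314). Both calls were lost without some single libraries. That of Uqcrfs1 was lost without CRISPRa replicate 1, 2 or 3 or VP64 only replicate 3, 4, 5 or 6 (adjusted p up to 0.0759), and that of Sdhd without CRISPRa replicate 1, 2, 4, 5 or 6 or VP64 only replicate 1, 3, 4 or 6 (adjusted p up to 0.0819). In 4 nuclear members (Cox8a, Cox7a2, Ndufv3 and Uqcrfs1) every CRISPRa library was below every VP64 only library, which held for 3.01% of all tested genes.

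**Figure D3:**
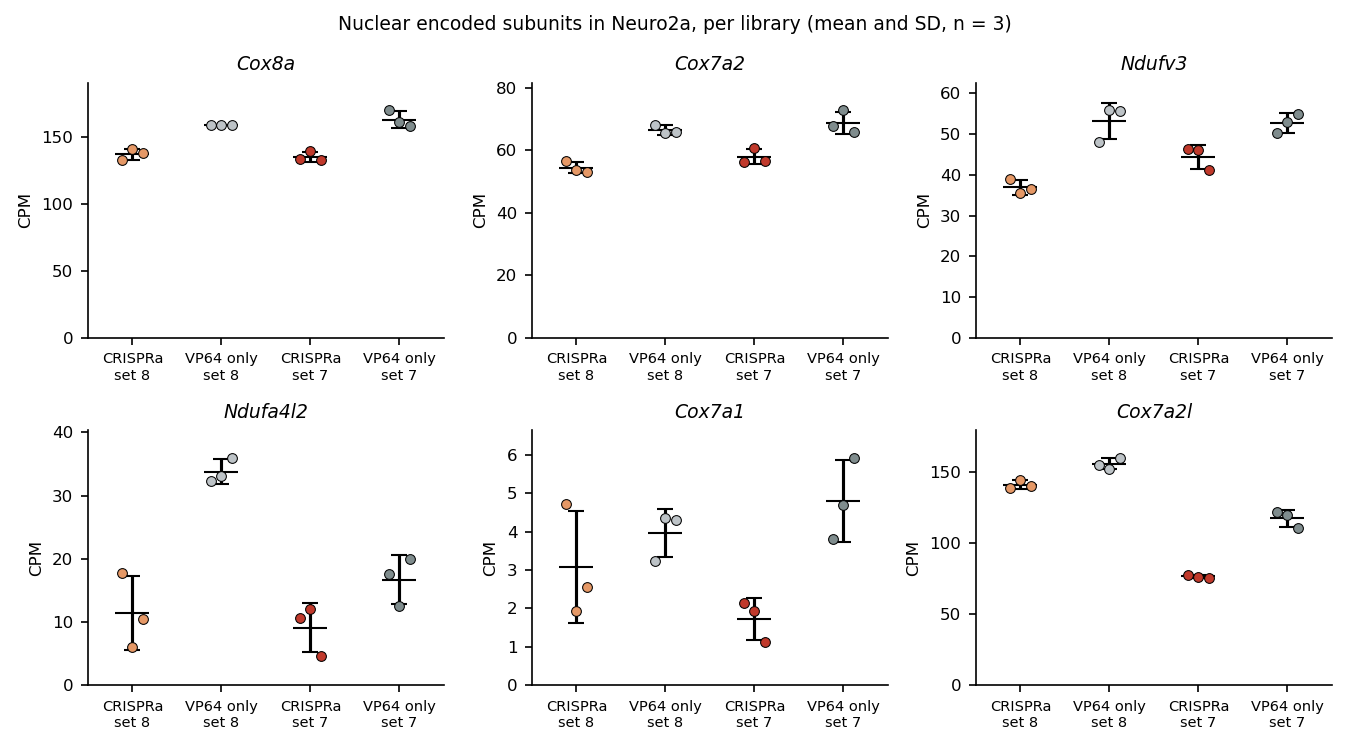
CPM of Cox8a, Cox7a2, Ndufv3, Ndufa4l2, Cox7a1 and Cox7a2l in each Neuro2a library, by library set, with CRISPRa left of VP64 only, 1 point per library and lines and bars at the mean and SD (n = 3). Cox8a, Cox7a2 and Ndufv3 are lower in every CRISPRa library, the CRISPRa points of Ndufa4l2 lie between 4.67 and 17.7 CPM, and Cox7a2l differs by library set as well as by group.

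Where a subunit has isoforms, the widely expressed form led in these cells. Per kilobase, Cox8a stood at 220 CPM in CRISPRa and 261 in VP64 only cultures. Cox6a1 stood at 200 in CRISPRa and 208 in VP64 only cultures, and its heart and muscle isoform Cox6a2 at 8.45 in CRISPRa and 10.4 in VP64 only cultures. Ndufa4 stood at 61.3 in CRISPRa and 59.6 in VP64 only cultures, against 9.36 in CRISPRa and 23.0 in VP64 only cultures for Ndufa4l2. Cox7b stood at 30.4 in CRISPRa and 33.8 in VP64 only cultures and Cox7b2, known as its testis isoform, at 19.5 in CRISPRa and 23.7 in VP64 only cultures. Cox6a1, Cox6a2, Ndufa4, Cox7b, Cox7b2, Cox6b1 and Cox7a2l did not pass in the pooled comparison (adjusted p 0.0925 to 0.907). Of these, the authors' deposited table lists Cox7b2 (-0.34, adjusted p = 0.0212) and Cox6b1 (-0.18, adjusted p = 0.0407) as lower, and the others as not passing. Within set 7 Cox6a2 fell, and that call held in all 21 alternative fits (log2 difference -0.75 to -0.52, limma adjusted p up to 0.0115). The members that did not pass the filter were near 0: Cox6b2 was read in 1 CRISPRa library at 0.063 CPM, Ndufa11b in 1 VP64 only library at 0.0606 CPM, Cox6c2 at up to 0.170 CPM and Ndufs6b at up to 0.549 CPM, where 3 reads amount to 0.143 to 0.193 CPM.

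By library set the nuclear members were not alike. In set 8, 0 rose and 19 fell of 66 (10.4% of all genes fell; median -0.09 against 0.02 over all genes). In set 7, 6 rose and 13 fell, where 29.7% of all genes rose and 17% fell, and the median was 0.01 against 0.09 over all genes. The 6 that rose in set 7 were Uqcrc1 (0.18, adjusted p = 0.00724), a core protein of complex III, Sdhb (0.14, adjusted p = 0.00749), the iron-sulfur subunit of complex II, Uqcrq (0.21, adjusted p = 0.0101), Ndufs3 (0.24, adjusted p = 0.0131), Ndufb8 (0.19, adjusted p = 0.0238) and Ndufc1 (0.26, adjusted p = 0.042). Under median-of-ratios scaling all 6 lost their calls (adjusted p 0.0966 to 0.28, Sdhb at 0.06 and Uqcrc1 at 0.10 on the log2 scale). Without single libraries, Uqcrc1 and Sdhb kept their calls in all 12 fits. The other 4 lost theirs without VP64 only replicate 1 (adjusted p 0.0526 for Uqcrq, 0.0556 for Ndufs3, 0.0574 for Ndufb8 and 0.249 for Ndufc1), Uqcrq (0.0929) and Ndufb8 (0.162) also without CRISPRa replicate 2, and Ndufc1 also without CRISPRa replicate 1, 2 or 3 or VP64 only replicate 2.

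The falls had some members common to the sets. Ndufv3 fell by 0.52 in set 8 (log2 difference -0.52, adjusted p = 1.07e-05) and differed by -0.24 in set 7. Cox8a differed by -0.21 in set 8 and -0.27 in set 7, and Cox7a2 by -0.29 in set 8 and -0.25 in set 7, each a call in its set. Ndufa4l2 differed by -1.65 in set 8 (adjusted p = 0.000263) and -0.91 in set 7 (adjusted p = 0.0135). Sdha, the catalytic flavoprotein of complex II, passed in set 8 (-0.17, adjusted p = 0.0031), with 227, 228 and 224 CPM in CRISPRa cultures against 265, 251 and 247 CPM in VP64 only cultures. Ndufb11 (-0.34, adjusted p = 0.000165) and Ndufc2 (-0.22, adjusted p = 0.00697), both complex I subunits, passed in set 8 as well.

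Among nuclear members the set contrast with the smallest p was that of Cox7a2l, which encodes a factor of supercomplex assembly related to Cox7a2. In set 8 it had 138.5, 144.3 and 140.2 CPM in CRISPRa cultures, against 155.1, 152.1 and 160.1 CPM in VP64 only cultures. In set 7 it had 77.5, 76.3 and 75.3 CPM in CRISPRa cultures, against 121.7, 119.9 and 110.6 CPM in VP64 only cultures. CRISPRa libraries of Cox7a2l were lower in both sets, by 0.14 and 0.62 on the log2 scale (log2 differences -0.14 in set 8 and -0.62 in set 7, adjusted p = 1.12e-09 in set 7), and the set contrast was 0.47 (adjusted p = 2.49e-05). It was the only 1 of 66 whose contrast was positive and passed, where 9.42% of all genes did so. The 6 negative contrasts that passed, where 12.3% of all genes did so, were those of Ndufs7 (-0.35, adjusted p = 0.00498), Ndufb8 (-0.30), Uqcrq (-0.29), Ndufb4c (-1.06), Ndufs3 (-0.32) and Ndufv3 (-0.27). All but that of Ndufs7 were lost in 4 to 9 of the 12 fits without a single library, with adjusted p up to 0.121.

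**Figure D4:**
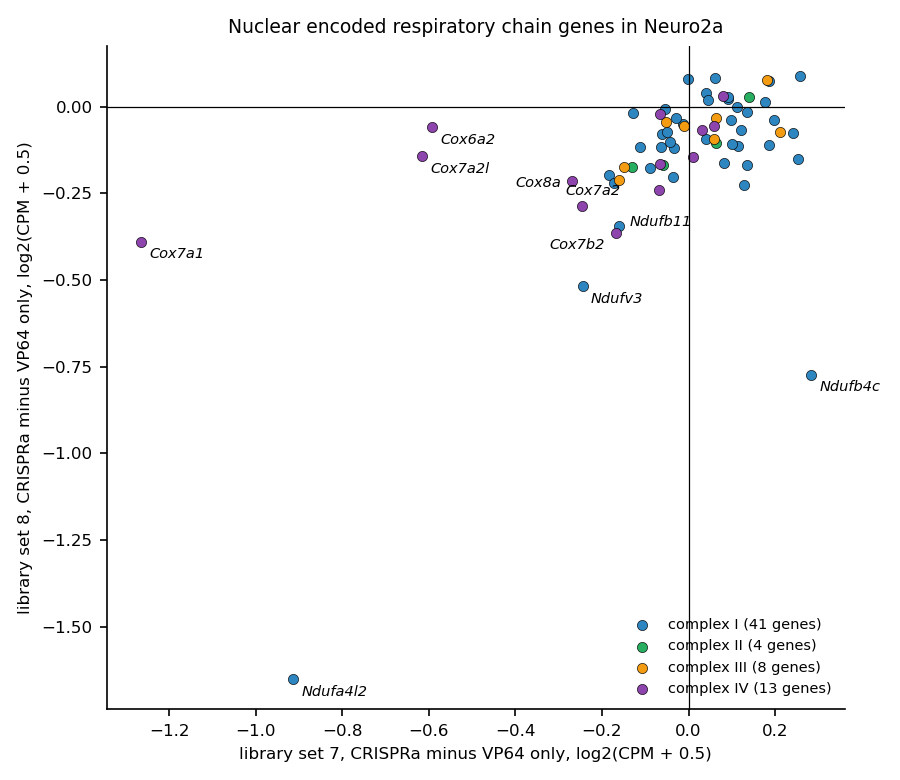
CRISPRa minus VP64 only differences on log2(CPM + 0.5) of the 66 tested nuclear members, with set 8 on the vertical and set 7 on the horizontal axis, 1 point per gene coloured by the complex of its symbol. Ndufa4l2 (-1.65 in set 8 and -0.91 in set 7) lies farthest from 0, Cox7a2l lies at -0.14 in set 8 and -0.62 in set 7, and most other members lie near 0 in both.

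Many nuclear members differed between sets, as did many genes in general. In VP64 only cultures, set 8 minus set 7 was negative and passed for 32 of 66 and positive for 6, where 25.9% of all genes were lower and 19.9% higher, with a median of -0.13 against -0.03 over all genes. Sdhb had 171, 168 and 163 CPM in set 8 VP64 only cultures and 204, 210 and 220 CPM in those of set 7 (-0.33, adjusted p = 1.18e-06). Cox6a1 had 124, 128 and 133 CPM in set 8 VP64 only cultures and 155, 166 and 170 CPM in those of set 7 (-0.35, adjusted p = 4.59e-06). Of the 5 members whose promoters hold the NRF1 core, Ndufa11 (-0.28) and Ndufa8 (-0.20) were lower in set 8 as well, and Ndufa6 was higher (0.24, adjusted p = 0.000844). Cox5b (-0.42, adjusted p = 1.26e-06), a regulatory oxidase subunit, and Ndufa4 (-0.39, adjusted p = 2.87e-06) were lower in set 8 too. Each library set holds 3 cultures of both groups, and with library set as a covariate the CRISPRa minus VP64 only calls among nuclear members were 1 higher and 17 lower.

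Neighbouring genes of the pathway were read in the same pooled fit, in which 10% of all genes rose and 5.02% fell. Of 19 nuclear ATP synthase genes, 0 rose and 4 fell (median -0.08), Atp5f1c by the most (log2 difference -0.26, adjusted p = 0.00255), which encodes the rotating central stalk. Of 6 other oxidase and bc1 genes, 0 rose and 2 fell. Cox4i2, the oxidase isoform known for low-oxygen conditions, had 17.3 ± 4.2 CPM in CRISPRa and 34.4 ± 4.2 in VP64 only cultures (log2 difference -0.9995, adjusted p = 0.000796), and Higd1a, a hypoxia-inducible oxidase modulator, had 29.3 ± 2.2 CPM in CRISPRa and 47.2 ± 7.0 in VP64 only cultures (log2 difference -0.67, adjusted p = 0.000655; SD, n = 6 each).

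Of the genes that build or maintain the mitochondrial side, few passed in the pooled fit, and more rose in set 7. Of 27 genes of mitochondrial transcription and RNA turnover, 2 rose (Polrmt, the mitochondrial RNA polymerase, 0.20, and Fastkd5, 0.31) and 3 fell (Lrpprc, which stabilises mitochondrial mRNAs, -0.25, adjusted p = 0.00335, Grsf1, -0.27, adjusted p = 0.00326, and Hsd17b10, -0.20), and under median-of-ratios or quantile scaling 0 rose and 3 fell. Of 15 genes of mitochondrial DNA maintenance 2 rose (Polg, the replicative polymerase, 0.30, adjusted p = 0.00151, and Tk2, 0.28) and 0 fell, with 1 rising under either scaling. Of 45 assembly factors 2 rose (Cox17, 0.22, and Ndufaf3, 0.55) and 0 fell, with 0 rising under either scaling. Of 11 biogenesis regulators 1 rose (Pprc1, 0.19) and 1 fell (Gabpa, -0.28, adjusted p = 0.0023), with 0 rising and 1 falling under median-of-ratios scaling. By set, the transcription and RNA turnover genes had 4 higher and 3 lower in set 8 and 14 higher and 4 lower in set 7. The assembly factors had 2 higher and 1 lower in set 8 and 17 higher and 1 lower in set 7, and the DNA maintenance genes had 4 higher in set 8 and 7 higher in set 7, with 0 lower in both. Over all genes 14.4% were higher and 10.4% lower in set 8, and 29.7% higher and 17% lower in set 7. These counts by set are on the levels as deposited and were not followed under other scalings. Over all genes, median-of-ratios scaling gave 3085 higher and 3401 lower in set 7, against 4276 and 2443 as deposited. The pooled list medians, 0.14 for the first 3 lists and -0.07 for the last, stood beside 0.06 over all genes.

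Both mitochondrial ribosomal RNAs rose with the mitochondrial messengers. The small rRNA mt-Rnr1 had 246 ± 41 CPM in CRISPRa and 148 ± 8.1 in VP64 only cultures (log2 difference 0.72, adjusted p = 0.000451), and mt-Rnr2 differed by 0.40 (adjusted p = 0.00258). Of 5 tested RNAs known to stay in the nucleus, 2 rose and 0 fell in CRISPRa cultures, where 10% of all genes rose. Malat1 rose by 0.48 (adjusted p = 0.000183) and Neat1 by 1.16 (adjusted p = 0.0177), and the others did not pass. The 6 listed RNAs of this kind summed to 109 ± 11.6 CPM in CRISPRa and 74.4 ± 4.77 in VP64 only cultures. The ranges of that sum, 91.8 to 123 and 69.0 to 81.1 CPM, did not overlap, but a sum weighs abundant RNAs most. The part of RNA composition in the mitochondrial difference was not tested. Neuroblastoma markers summed to 837 ± 91.4 CPM in CRISPRa and 894 ± 64.8 in VP64 only cultures.

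In sorted nuclei the mitochondrial genes were lower in Het CRISPRa than in Het mice, with a wide spread among the Het libraries and 0 genes past the test. The 13 genes summed to 6997, 7478 and 7922 CPM in Het CRISPRa nuclei, against 17693, 13473 and 8524 CPM in Het nuclei, and 10036, 11724 and 7412 CPM in WT nuclei. All 3 Het CRISPRa libraries lay below all Het libraries, and Het replicate 3 was close to them. The nuclear members summed to 1605, 1460 and 1438 CPM in Het CRISPRa, 1895, 1679 and 1508 CPM in Het, and 1802, 1763 and 1454 CPM in WT nuclei, and these ranges overlap. The ratio of the sums was 4.36, 5.12 and 5.51 in Het CRISPRa, 9.34, 8.02 and 5.65 in Het, and 5.57, 6.65 and 5.10 in WT nuclei. The mitochondrial rRNAs moved with the messengers, at 377 ± 44 CPM in Het CRISPRa, 724 ± 365 CPM in Het and 465 ± 127 CPM in WT nuclei (SD, n = 3 each). How much cytoplasm each sorted preparation carried was not tested.

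**Figure D5:**
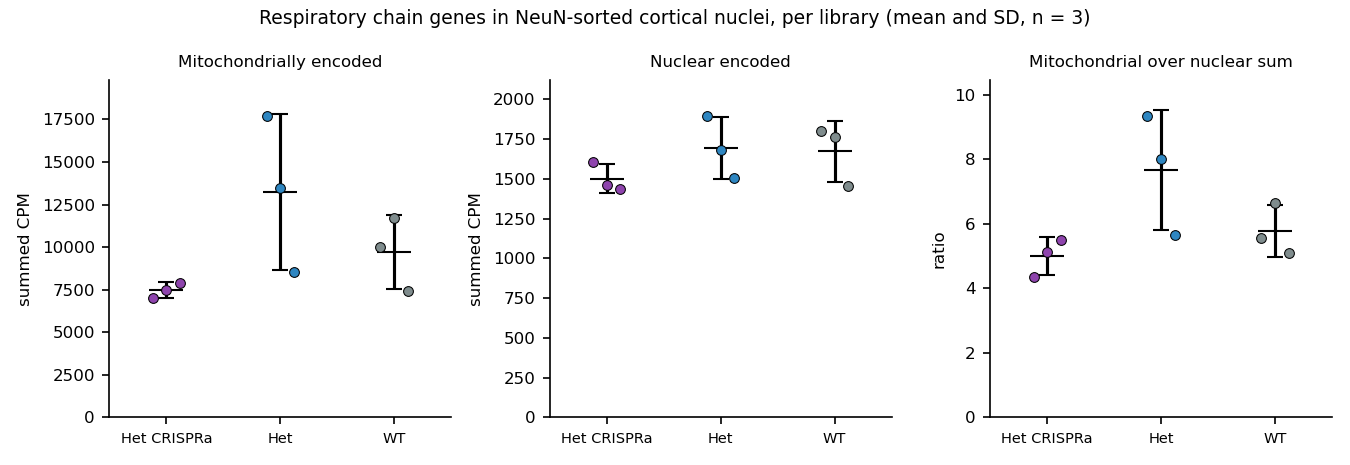
Summed CPM of the mitochondrial and of the nuclear respiratory chain genes and their ratio in each library of sorted nuclei, Het CRISPRa, then Het, then WT, with 1 point per library and lines and bars at the mean and SD (n = 3). Het CRISPRa nuclei cluster at 6997 to 7922 CPM of mitochondrial RNA while Het nuclei spread over 8524 to 17693 CPM.

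For Het CRISPRa minus Het, the log2 differences of the 13 genes ran from -0.94 to -0.41 with a median of -0.77, against 0.04 over all genes. With limma and Benjamini-Hochberg adjustment 0 of 13 passed, where 0.0422% of all genes passed in either direction, and 10 had an unadjusted p below 0.05. The smallest adjusted p was that of mt-Atp6, with 562, 588 and 733 CPM in Het CRISPRa nuclei, 1481, 1371 and 852 CPM in Het nuclei, and 645, 875 and 653 CPM in WT nuclei (log2 difference -0.94, SE 0.19, adjusted p = 0.165). All Het CRISPRa values of mt-Atp6 lie below all Het values. In 10 of the 13 genes (all but mt-Co3, mt-Nd3 and mt-Nd4l) the Het CRISPRa libraries were all below the Het libraries, which held for 4.61% of all genes. For a single gene the exact permutation test cannot go below p = 0.1 with 3 against 3. The authors' deposited table lists 9 of 13 as lower at an adjusted p below 0.05, mt-Atp6 at -1.004 (adjusted p = 0.000314).

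Het replicate 3 decides the limma calls. Without it 8 of 13 genes were lower in Het CRISPRa nuclei, where 0.186% of all genes (35 of 18779) were: mt-Atp6 (-1.19, adjusted p = 0.00801), mt-Co3 (-1.03, adjusted p = 0.00991), mt-Nd2 (-1.10), mt-Nd4 (-1.09), mt-Nd1 (-1.07), mt-Co1 (-1.06), mt-Nd5 (-1.06) and mt-Cytb (-1.02). The gene mt-Co1 shows the pattern of the libraries, with 2015, 2213 and 2347 CPM in Het CRISPRa nuclei, against 5452, 3807 and 2523 CPM in Het nuclei and 3031, 3627 and 2260 CPM in WT nuclei. Het replicate 3 of mt-Co1, at 2523 CPM, is the Het library closest to the Het CRISPRa libraries and lies inside the WT range. The gene mt-Nd3, with 9.83, 10.6 and 6.96 CPM in Het CRISPRa and 27.2, 6.43 and 9.95 CPM in Het nuclei, overlaps, and its sign turned without Het replicate 1 (0.16).

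The nuclear members were slightly lower in Het CRISPRa than in Het nuclei and 0 of 61 passed the test. Their median was -0.17, against 0.04 over all genes, with 53 of 61 below 0, 6 at an unadjusted p below 0.05 and a lowest adjusted p of 0.81. The smallest p-values belonged to Ndufs6, Ndufs7 and Sdhc. Ndufs6, an accessory subunit of complex I, had 2.82, 2.29 and 2.45 CPM in Het CRISPRa nuclei, 4.21, 3.63 and 3.68 CPM in Het nuclei, and 4.06, 3.85 and 3.99 CPM in WT nuclei (log2 difference from Het -0.52). Its Het CRISPRa libraries were below all others. Ndufs7, an iron-sulfur subunit that passes electrons toward ubiquinone, had 29.2, 21.7 and 27.7 CPM in Het CRISPRa nuclei, against 35.3, 34.3 and 31.6 CPM in Het nuclei (log2 difference -0.37), and Sdhc, a membrane anchor of complex II, had 18.0, 14.8 and 17.5 CPM in Het CRISPRa nuclei, against 19.9, 20.2 and 23.2 CPM in Het nuclei (log2 difference -0.33). In 8 of 61 nuclear members the Het CRISPRa libraries were all below the Het libraries, against 4.61% of all genes. None of the 7 nuclear members that fell in Neuro2a was among those 8, and 2 of the 7, Cox7a1 (0 to 0.517 CPM) and Ndufa4l2 (0 to 0.434 CPM), were too low in nuclei to be tested. The other members below the filter in nuclei were Cox6b2, Cox6c2, Cox7b2, Cox8b, Ndufb4b, Ndufb4c, Ndufb11b and Ndufs6b, none above 0.749 CPM in any library, and Cox8b and Ndufb11b were each read in a single Het library.

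The comparisons with WT use the same Het CRISPRa and Het libraries again, so their values are not independent of those above. For Het CRISPRa minus WT, 0 of 13 mitochondrial and 0 of 61 nuclear members passed, where 0.00527% of all genes did. The medians were -0.42 for mitochondrial and -0.21 for nuclear members, against -0.02 over all genes, with 12 of 13 and 58 of 61 below 0. Het CRISPRa libraries were all below WT libraries in 3 mitochondrial genes (mt-Nd1, mt-Nd3 and mt-Cytb) and 9 nuclear ones, where 4.46% of all genes showed this. The nuclear member with the smallest p was Ndufa13 (log2 difference -0.47), which encodes a complex I subunit, then Ndufs6 (-0.57) and Ndufa3 (-0.58).

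For Het minus WT, 0 of 13 mitochondrial and 0 of 61 nuclear members passed, where 0% of all genes did. The mitochondrial median was 0.36, with 11 of 13 above 0 and mt-Atp6 highest at 0.74, while the nuclear median was -0.046, against -0.052 over all genes, and it turned to 0.00 under median-of-ratios scaling and 0.03 under quantile scaling. Het libraries were all below WT libraries in 0 mitochondrial and 5 nuclear members (Cox5a, Ndufb9, Ndufv3, Ndufab1 and Ndufb7), where 7.3% of all genes showed this. Per kilobase, mt-Co1 led in every group, at 1418 CPM per kb in Het CRISPRa, 2542 in Het and 1924 in WT nuclei. The order below it was not that of Neuro2a: mt-Atp8 stood at 49.5 in Het CRISPRa, 93 in Het and 76.8 in WT nuclei, below mt-Nd6 at 172 in Het CRISPRa, 307 in Het and 238 in WT nuclei. Both genes share bases with a neighbour, and how strand and shared bases were counted is not stated, so this order is uncertain.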

How the data were processed

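The 2 deposited tables of levels hold CPM (counts per 1e+06 reads) per gene, per the file headers, for 12 Neuro2a libraries and 9 libraries of sorted nuclei. Tools listed by the submitters' processing notes, without roles, are featureCounts, STAR 2.7.8a, R 4.4 and DESeq2 1.44, and the builds listed there are GRCm39 and mm39. Strandedness and the treatment of reads with several alignments are not given in the sources used here. The authors' deposited comparison tables give a log2 fold change and p-values (adjusted), used only where named, and their WT against Het column was given the opposite sign. Depth is the inverse of the most frequent CPM above 0, and 70.8 to 73.2% of Neuro2a and 79.8 to 82.4% of mouse values lay within 0.01 of whole reads, so no count test was run. The floor of 3 reads covers counting error only.

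Levels were tested as log2(CPM + 0.5) with limma 3.58.1 in R 4.3.3 (eBayes with trend), Benjamini-Hochberg adjusted over all genes at or above 0.5 CPM in at least 6 Neuro2a or 3 mouse libraries, transgenes left out. The Neuro2a groups were fitted together, library sets as 4 groups with the set contrast as an interaction, and the 3 mouse groups in a single fit. Single genes were also given exact permutation tests in scipy 1.17.1. The script was tested on simulated data. Members and gene lists were chosen with earlier results of these data known. Named were all mitochondrial members, up to 8 nuclear members per direction past the threshold in order of p (otherwise the 3 with the smallest p), alternative subunit isoforms, the Sdh genes, untested members, and up to 4 genes past the threshold per pathway list. Alternatives changed the pseudocount, filter, scaling, variance moderation, the libraries left out, the replicate block and the library set term, and list counts under the scalings were added afterwards. Same-numbered Neuro2a libraries of the 2 groups correlated at 0.305 to 0.499 after subtracting group means and were therefore treated as pairs in the block, although within library sets the correlations were -0.0708 to 0.0229, so the number carries the set. Same-numbered mouse libraries correlated at -0.11 to 0.419, against -0.427 to 0.243 for different numbers. Het and WT libraries stood highest at replicate 3 (0.419) and replicate 1 (0.337), against 0.034 at replicate 2, so shared structure in these numbers is possible. The main mouse fit treated no libraries as paired, and the replicate block was run as an alternative. Sequences come from GENCODE M21 on GRCm38 and RefSeq on GRCm38.p6, whereas the levels were made on the builds above, so no coordinate of one was used with the other.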

Additional observations from a re-analysis of the deposited data

Results flagged for a closer look

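The CRISPRa minus VP64 only difference differed between library sets, by the interaction test, for 15 members. On the log2 scale, set 8 minus set 7 was -0.79 for mt-Co2, -0.55 for mt-Nd5, -0.50 for mt-Cytb, -0.49 for mt-Nd4, -0.43 for mt-Atp6, -0.40 for mt-Nd1, -0.40 for mt-Nd6 and -0.31 for mt-Nd2. Among nuclear members it was 0.47 for Cox7a2l, -1.06 for Ndufb4c, -0.35 for Ndufs7, -0.32 for Ndufs3, -0.30 for Ndufb8, -0.29 for Uqcrq and -0.27 for Ndufv3. The sets differ in transgene level as well, and its part was not tested.

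A library far from the other 5 of its group was met in 2 of 106 groups examined, where chance gives about 1 in 20. Ndufb4c had 5.09 CPM in CRISPRa replicate 2, against 1.09 to 2.35 CPM in the other CRISPRa cultures, and Cox8a had 170.2 CPM in VP64 only replicate 1, against 158.1 to 161.2 CPM in the other VP64 only cultures. Without that library the fall of Cox8a was 0.23 on the log2 scale (adjusted p = 0.0056).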

How the results depend on the processing

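Of the Neuro2a calls, 9 to 11 mitochondrial members rose whenever 1 library was left out. The count of 7 nuclear members was 4 without the filter, 12 under median-of-ratios scaling, 14 with the replicate block, 18 with library set as a covariate and 4 to 7 without single libraries. The replicate block moved no other count of calls by more than 1.5 times. It changed no call of a named member either. Without single libraries, 0 to 5 genes of mitochondrial transcription, 0 to 4 assembly factors and 1 to 2 genes of mitochondrial DNA maintenance rose. The nuclear median ran from -0.0691 to 0.000408 without single libraries. In set 7 it was -0.000629 with a filter of 1 CPM, -0.0795 under median-of-ratios and -0.0431 under quantile scaling, and -0.00919 to 0.033 without single libraries. The set contrasts passed for 3 mitochondrial members without the filter and 4 with robust moderation (8 as reported), and for 2 nuclear members without the filter, 4 under median-of-ratios scaling and 2 to 8 without single libraries (7 as reported). The set difference in VP64 only cultures passed for 2 mitochondrial members without the filter or with robust moderation (4 as reported).

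Signs near 0 turned. Under median-of-ratios scaling mt-Co3 was at -0.0135 pooled and -0.0302 in set 8, and mt-Nd2 in VP64 only cultures at 0.0206 (0.0208 under quantile scaling, where mt-Co1 was at -0.199). Without single libraries, mt-Co3 ran from -0.122 to 0.0916 in set 8 and from -0.211 to 0.00258 in the set contrast, mt-Atp6 in set 8 from -0.0327 to 0.146, and in VP64 only cultures mt-Nd2 from -0.0591 to 0.0514, mt-Co1 from -0.00503 to 0.215, mt-Nd5 from -0.0631 to 0.107, mt-Nd4l from -0.0677 to 0.282 and mt-Nd3 from -0.252 to 0.359. In nuclei 0 to 8 mitochondrial members were lower in Het CRISPRa than in Het without single libraries, with a median of -1.04 to -0.513, and mt-Nd3 ran from -0.842 to 0.157. For Het CRISPRa minus WT, mt-Co2 was -0.0166 under quantile scaling and ran from -0.262 to 0.3002, and mt-Co3 from -0.185 to 0.0693. For Het minus WT, the nuclear median was 0.00274 under median-of-ratios and 0.0303 under quantile scaling and ran from -0.141 to 0.0367, and mt-Nd4l was 0.0236 and 0.0107 under those scalings and ran from -0.415 to 0.334. The cause of these changes was not tested. With 3 libraries a group, the exact test of a single gene cannot pass, and members under the floor of 3 reads cannot be ranked.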
